A study of Mus musculus with 6 samples.

Results

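Colony-stimulating factors are secreted proteins that drive the production, survival and activation of myeloid cells. The colony-stimulating factor genes on these arrays were Csf1, Csf2 and Csf3, and their receptor genes were Csf1r, Csf2ra, Csf2rb and Csf3r. Members were chosen by name, as every probe set annotated to 1 of these 7 genes, which gave 14 of the 45037 probe sets that are not array controls. Of these, 6 read ligands and 8 read receptors. The probe set 1450200_s_at is annotated to both Csf2rb and its neighbour Csf2rb2, so it was kept apart and entered no count of members.

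Csf3 encodes G-CSF, the main growth factor of neutrophils, which is made by stromal, endothelial and epithelial cells and macrophages when inflammatory cytokines reach them, and which acts through the receptor chain Csf3r on neutrophils and their precursors. Csf2 encodes GM-CSF, which binds the alpha chain Csf2ra and signals through the beta chain Csf2rb. In the mouse, Csf2rb is shared with the receptors for interleukin 3 and interleukin 5, while its close relative Csf2rb2 serves interleukin 3 alone. Csf1 encodes M-CSF, the survival factor of monocytes and macrophages, and Csf1r is its receptor tyrosine kinase, which also binds Il34. In the intestine, macrophages of the lamina propria depend on Csf1r.

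Total RNA was taken from colon of C57BL/6 mice aged 6 to 8 weeks, 24 h after ethanol had been given by rectal injection. All 3 groups received ethanol, and colon without it was not analysed here. Wild type was set beside GPR41 KO and GPR43 KO mice, each group read on 2 arrays, and both knockouts lack a G protein-coupled receptor for short-chain fatty acids (gene Ffar3 for GPR41 and Ffar2 for GPR43). The labels do not give the deleted part of either allele, whether the deletion is limited to a cell type, or whether arrays of 1 group stand for different animals, so p-values measure only the spread between these samples.

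Values are MAS5 signals of Affymetrix probe sets on a linear scale, with the same trimmed mean in every array. The median signal per array ranged from 80.9 to 96.8. Ffar2 went against the label of 1 library. Its probe set 1425215_at read 1194 and 1118 in wild type, 1857 and 1933 in GPR41 KO, and for GPR43 KO 1598 (library labelled replicate 1) and 189.0 (replicate 2). Calls in GPR43 KO, and Csf3r, are therefore also given, one by one or as a count, without the library labelled GPR43 KO replicate 1. No probe set is annotated to Ffar3 in the table used, which leaves the label GPR41 KO without a check. Leaving out 1 array leaves a group with 1, which is assumed to vary like the others.

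Promoter sequence was at hand for 4 of the 7 genes, as windows from 250 bases before to 50 after a RefSeq start on GRCm38.p6. Those of Csf3r and Csf2ra are shown because both receptors fell in GPR41 KO, and that of Csf2 because its ligand pairs with Csf2ra. Each is given 5′ to 3′ on the gene's strand, at chr4:126024409-126024708 on the plus strand for Csf3r, chr19:61228369-61228668 on the minus strand for Csf2ra and chr11:54249850-54250149 on the minus strand for Csf2. The Csf3r window lies wholly inside the span of its gene, 126023441 to 126044975, and not before the first base of that span.
Csf3r: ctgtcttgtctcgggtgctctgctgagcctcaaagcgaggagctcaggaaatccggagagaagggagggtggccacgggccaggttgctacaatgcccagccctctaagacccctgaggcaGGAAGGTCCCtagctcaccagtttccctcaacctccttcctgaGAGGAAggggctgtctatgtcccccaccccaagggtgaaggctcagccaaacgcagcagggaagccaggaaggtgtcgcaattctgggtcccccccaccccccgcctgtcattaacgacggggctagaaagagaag
Csf2ra: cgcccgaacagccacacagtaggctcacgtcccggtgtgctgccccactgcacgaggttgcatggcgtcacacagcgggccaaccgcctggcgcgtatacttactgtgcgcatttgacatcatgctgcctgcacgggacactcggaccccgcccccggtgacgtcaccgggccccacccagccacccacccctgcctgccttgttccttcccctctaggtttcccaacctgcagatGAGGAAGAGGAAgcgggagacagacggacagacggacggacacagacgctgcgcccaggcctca
Csf2: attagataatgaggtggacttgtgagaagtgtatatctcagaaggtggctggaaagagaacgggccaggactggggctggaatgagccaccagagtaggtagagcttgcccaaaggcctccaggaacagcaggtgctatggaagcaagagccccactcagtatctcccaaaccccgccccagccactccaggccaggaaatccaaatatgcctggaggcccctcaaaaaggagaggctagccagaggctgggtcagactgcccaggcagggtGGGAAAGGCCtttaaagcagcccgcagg

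Capitals mark matches, on either strand, of any of 6 motifs. The letters GAGGAA, a core that the myeloid factor PU.1 (gene Spi1) can bind, occurred 1 time in the Csf3r window and 2 times, side by side, in the Csf2ra window, and 28.3% of all 32851 promoter windows hold them. This motif was added after the windows had been read. The NF-kB pattern GGGANNNNCC occurred 1 time in the Csf3r window and 1 time in the Csf2 window, against 20.7% of all windows. The TATA box TATAAA (13.6% of all windows), the AP-1 pattern TGANTCA (7.81%), the STAT pattern TTCNNNGAA (8.3%) and GAGATT, the start of the CK-1 element (11.6%), had no match in these 3 windows. A match, or the lack of one, describes letters in the window only and says nothing of sequence outside it. The Csf1 window, also at hand but not shown, held 3 matches of the NF-kB pattern, some on overlapping letters, and 1 of GAGATT. Windows of Csf3, Csf1r and Csf2rb are not shown.

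Csf3 was the ligand with the largest difference between genotypes. The gene lies on chromosome 11 at 98700183 to 98703631 and is read by 1419427_at, which gave 803 and 2289 in wild type, 92.4 and 99.4 in GPR41 KO, and for GPR43 KO 52.5 (library labelled replicate 1) and 61.6 (replicate 2). Both wild-type arrays lay above all 4 arrays labelled KO, although they differed 2.85-fold between themselves. The mean signal was 1546 ± 1051 (SD, n = 2) in wild type, 95.9 ± 4.97 in GPR41 KO and 57.0 ± 6.46 in GPR43 KO.

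On the scale of log2 of signal plus a pseudocount of 18.4, used for every fold change here, Csf3 fell in both comparisons. It fell by 3.59 ± 0.43 (SE) with GPR41 KO (limma, adjusted p = 0.00606), and it fell by 4.19 ± 0.43 with GPR43 KO (adjusted p = 0.00367). The pseudocount makes folds against weak signals smaller. Only 0.109% of all probe sets had a lower log2 fold change in GPR41 KO and 0.0644% in GPR43 KO. Each call was lost without either array of its KO group. For GPR41 KO, leaving out its replicate 1 gave an adjusted p of 0.111 and leaving out its replicate 2 gave 0.0918. In GPR43 KO it was lost without the library labelled GPR43 KO replicate 1 (log2 fold change -4.11, adjusted p = 0.0594) or without replicate 2 (adjusted p = 0.0681).

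**Figure D1:**
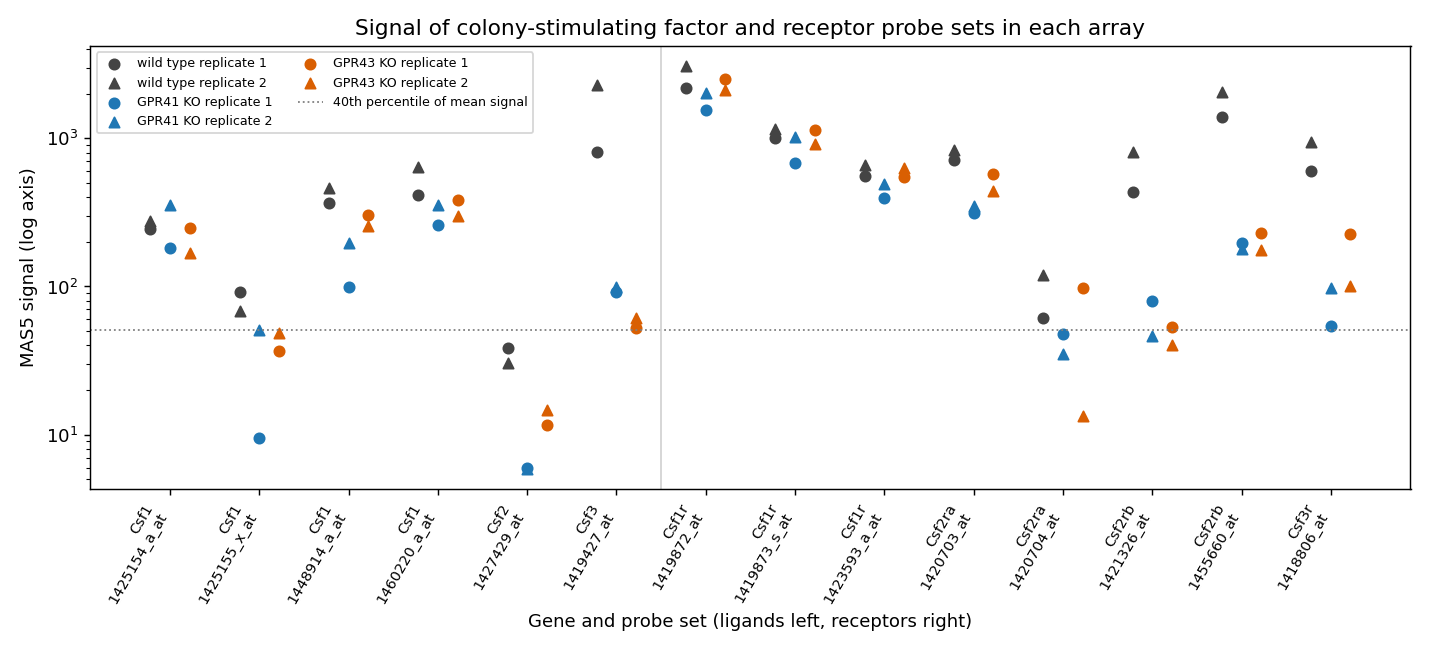
MAS5 signal (log axis) of each member probe set in each of the 6 arrays, with circles for replicate 1, triangles for replicate 2 and a dotted line at the 40th percentile of mean signal. Both wild-type points of Csf3, Csf2rb and Csf3r stand apart from all arrays labelled KO, while those of Csf1r overlap with GPR43 KO.

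Csf2 was close to the lower end of the measured range. Its single probe set 1427429_at (chromosome 11, 54247270 to 54249899) gave 38.5 and 30.3 in wild type, 5.93 and 5.86 in GPR41 KO, and for GPR43 KO 11.6 (library labelled replicate 1) and 14.7 (replicate 2). Wild type lay above the arrays labelled KO without overlap, but its mean log2 signal was at percentile 15.9 of all probe sets, and every value was below the 40th percentile of mean signal, 51.0. The log2 fold change of -1.12 ± 0.36 with GPR41 KO (adjusted p = 0.276) did not pass, nor did that of -0.74 ± 0.36 with GPR43 KO (adjusted p = 0.499).

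Csf1, the macrophage growth factor (chromosome 3, 107741048 to 107760469), is read by 4 probe sets, none of which passed in either comparison and which differed among themselves. 1448914_a_at gave 367 and 464 in wild type, 98.4 and 198 in GPR41 KO, and for GPR43 KO 305 (library labelled replicate 1) and 254 (replicate 2). No group overlapped with another here. The log2 fold change in GPR41 KO was -1.44 ± 0.32 (adjusted p = 0.0917) and that in GPR43 KO was -0.54 ± 0.32 (adjusted p = 0.594), and the former passed with weak probe sets left out (adjusted p = 0.0495).

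1460220_a_at, whose annotated accession is the same as that of 1448914_a_at, gave 414 and 643 in wild type, 260.2 and 355 in GPR41 KO, and 384 and 300 in GPR43 KO. Wild type was again above both KO groups without overlap, with log2 fold changes of -0.73 ± 0.26 (adjusted p = 0.339) and -0.58 ± 0.26 (adjusted p = 0.463). 1425154_a_at showed no such order: it gave 246 and 278 in wild type, 180 and 353 in GPR41 KO, and 250 and 169 in GPR43 KO. The wild-type arrays lay inside the range of GPR41 KO, and the log2 fold change was -0.043 (95% interval -0.80 to 0.71) in GPR41 KO, with the sign turned under median centring and quantile normalization. The weak probe set 1425155_x_at, with a mean below the 40th percentile, gave 9.49 to 92.2 over the 6 arrays. Its log2 fold change in GPR41 KO was -1.15 ± 0.52 (adjusted p = 0.479) and that in GPR43 KO was -0.69 ± 0.52 (adjusted p = 0.699).

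Csf2rb, the beta chain that carries the GM-CSF signal, fell in both comparisons by both of its probe sets. The gene lies on chromosome 15 at 78325800 to 78351001. Its brighter probe set 1455660_at gave 1390.0 and 2046 in wild type, 197 and 180 in GPR41 KO, and for GPR43 KO 229 (library labelled replicate 1) and 177 (replicate 2). The 4 arrays labelled KO thus held between 10.3% and 13.3% of the wild-type mean and lay close together. The log2 fold change in GPR41 KO was -3.04 ± 0.23 (adjusted p = 0.00101) and that in GPR43 KO was -2.96 ± 0.23 (adjusted p = 0.00169). It passed whichever array was left out, with adjusted p up to 0.036 in GPR41 KO and 0.0318 in GPR43 KO, and it was 0.0159 in GPR43 KO without the library labelled GPR43 KO replicate 1.

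The other Csf2rb probe set, 1421326_at, gave 434 and 809 in wild type, 80.0 and 46.0 in GPR41 KO, and 53.0 and 40.3 in GPR43 KO. It fell by 2.94 ± 0.40 on the log2 scale with GPR41 KO (adjusted p = 0.0113) and fell by 3.24 ± 0.40 with GPR43 KO (adjusted p = 0.00986), near the values of the brighter probe set. These calls were lost without wild-type replicate 2 (adjusted p = 0.147 and 0.119). The first was also lost without GPR41 KO replicate 1 (0.0906) or 2 (0.124), and the second without the library labelled GPR43 KO replicate 1 (0.0771) or replicate 2 (0.138).

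Csf2rb2, the mouse chain for interleukin 3, lies beside Csf2rb on chromosome 15 at 78282507 to 78305721. Its probe set 1449360_at gave 213 and 275.0 in wild type, 66.3 and 30.1 in GPR41 KO, and 57.8 and 91.8 in GPR43 KO, with log2 fold changes of -2.02 ± 0.42 (adjusted p = 0.074) and -1.51 ± 0.42 (adjusted p = 0.205). The first passed with weak probe sets left out (adjusted p = 0.0284). That filter used the mean of all 6 arrays, wild type included, so this pass is no separate support. The shared probe set 1450200_s_at gave 291 and 489 in wild type and 16.9 to 45.7 in the arrays labelled KO. Its log2 fold change was -3.09 ± 0.46 (adjusted p = 0.0173) and -3.06 ± 0.46 (adjusted p = 0.0239), but which of the 2 genes it read cannot be told. With 1 array left out these calls were lost 3 and 5 times of 6, the second also (adjusted p = 0.079) when the library labelled GPR43 KO replicate 1 was dropped.

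Csf2ra, the alpha chain that binds GM-CSF (chromosome 19, 61217191 to 61228461), differed less than its partner. Its brighter probe set 1420703_at gave 714 and 835 in wild type, 312 and 348 in GPR41 KO, and for GPR43 KO 574 (library labelled replicate 1) and 438 (replicate 2). The 3 groups did not overlap, with GPR43 KO between the others. Csf2ra fell by 1.18 ± 0.19 on the log2 scale in GPR41 KO (adjusted p = 0.0265). In GPR43 KO the log2 fold change was -0.60 ± 0.19 (adjusted p = 0.271). The difference of GPR43 KO from GPR41 KO was 0.58 (95% interval 0.14 to 1.02, adjusted p = 0.92), and 0.39 without the library labelled GPR43 KO replicate 1. The call in GPR41 KO was lost without wild-type replicate 2 (adjusted p = 0.191) and without replicate 1 (0.265) or 2 (0.166) of GPR41 KO. The dim probe set 1420704_at gave 61.0 and 120.1 in wild type, 47.5 and 35.0 in GPR41 KO, and 97.7 and 13.3 in GPR43 KO. With 2 such unlike arrays labelled GPR43 KO its SE was 0.63, and its log2 fold changes of -0.82 and -0.79 did not pass (adjusted p = 0.729 and 0.718).

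Csf3r, the receptor of G-CSF on neutrophils (chromosome 4, 126023441 to 126044975), is read by 1418806_at. It gave 602 and 945 in wild type, 53.8 and 97.9 in GPR41 KO, and for GPR43 KO 224 (library labelled replicate 1) and 100.1 (replicate 2). Wild type lay above all 4 arrays labelled KO, and the library labelled GPR43 KO replicate 1 had the highest signal of the 4. Csf3r fell by 3.08 ± 0.41 in GPR41 KO (adjusted p = 0.0099). This call was lost without wild-type replicate 2 (adjusted p = 0.111) and without replicate 1 (0.143) or 2 (0.0759) of GPR41 KO.

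In GPR43 KO the log2 fold change of Csf3r was -2.19 ± 0.41 and did not pass (adjusted p = 0.0564), and without the library labelled GPR43 KO replicate 1 it was -2.71 (adjusted p = 0.0961). It passed with median centring (adjusted p = 0.027) and with weak probe sets left out (0.0284). GPR43 KO against GPR41 KO gave 0.89 (95% interval -0.034 to 1.81, adjusted p = 0.924), so a difference between the knockouts was not shown. Without the library labelled GPR43 KO replicate 1 this difference was 0.37.

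**Figure D2:**
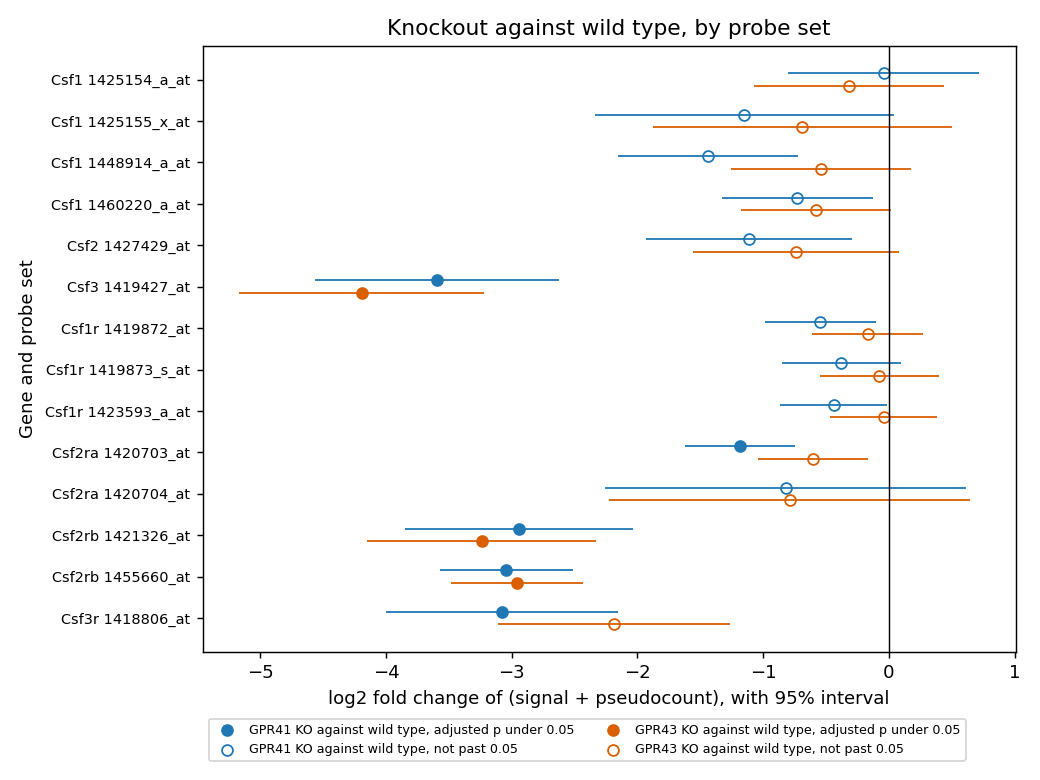
Log2 fold change of signal plus pseudocount against wild type for each member probe set, with its 95% interval (not adjusted for the number of probe sets) as a line and filled points where the adjusted p was under 0.05. Csf3 and both Csf2rb probe sets are filled in both comparisons, Csf3r and 1 Csf2ra probe set in GPR41 KO, and the points of Csf1r lie nearest to 0 among the receptors.

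Csf1r, the receptor of M-CSF on macrophages (chromosome 18, 61105572 to 61131139), passed in neither comparison by any of its 3 probe sets. 1419872_at gave 2189 and 3072 in wild type, 1556 and 2013 in GPR41 KO, and for GPR43 KO 2519 (library labelled replicate 1) and 2108 (replicate 2). GPR41 KO lay below wild type, while the arrays labelled GPR43 KO overlapped with wild type. The log2 fold change was -0.55 (95% interval -0.99 to -0.10, adjusted p = 0.329) in GPR41 KO and -0.17 (95% interval -0.61 to 0.27, adjusted p = 0.821) in GPR43 KO.

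The other Csf1r probe sets gave smaller differences. 1423593_a_at read 557 and 657 in wild type, 395 and 492 in GPR41 KO, and 544 and 634 in GPR43 KO, and 1419873_s_at read 1010 and 1164, 676 and 1016, and 1143 and 921 in the same order. Their log2 fold changes were -0.44 (adjusted p = 0.434) and -0.38 (0.591) in GPR41 KO and -0.042 (0.967) and -0.078 (0.937) in GPR43 KO. None of the 3 lower bounds of the 95% interval in GPR41 KO went below -0.99, so a fall as large as that of Csf2rb lies outside the intervals of all 3.

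Over all members, 5 of 14 probe sets, from 4 genes, fell in GPR41 KO against wild type and 0 rose, where 0.748% of all probe sets fell and 0.306% rose (1.05% together). In GPR43 KO 3 of 14, from 2 genes, fell and 0 rose, where 0.551% of all probe sets fell and 0.209% rose (0.759% together). By role, 1 of 6 ligand probe sets and 4 of 8 receptor probe sets fell in GPR41 KO, and 1 of 6 and 2 of 8 in GPR43 KO. The median log2 fold change of the members was -1.13 in GPR41 KO and -0.65 in GPR43 KO, while that of all probe sets was -0.021 and 0.017. Both comparisons share the wild-type arrays. All arrays of GPR41 KO lay below wild type in 12 of 14 member probe sets (22% of all probe sets), and those of GPR43 KO in 9 of 14 (19.2% of all probe sets). Of the 5 calls in GPR41 KO and the 3 in GPR43 KO, only that of Csf2rb 1455660_at passed whichever array was left out. With a common prior spread for all probe sets in place of the intensity trend, none of the 14 passed in either comparison (7 and 6 at an unadjusted p under 0.05).

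GPR43 KO against GPR41 KO called 0 of the 14 members with limma (2 at an unadjusted p under 0.05), and 0 of the 45037 probe sets (0%), of which 2433 (5.4%) had an unadjusted p under 0.05. The 2 were Csf1 1448914_a_at (log2 0.90, 95% interval 0.19 to 1.62) and Csf2ra 1420703_at (log2 0.58). Without the library labelled GPR43 KO replicate 1 their log2 differences were 0.78 and 0.39. GPR43 KO lay above GPR41 KO without overlap in 6 of the 14 (20.8% of all probe sets). For Csf3 the order was the other way, with a log2 difference of -0.60 (95% interval -1.57 to 0.37), and of -0.51 without that library. These intervals are wide, and with 2 arrays a group an exact permutation test cannot give a two-sided p below 0.333.

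Neutrophils carry Csf3r, macrophages carry Csf1r and both carry Csf2rb, so the markers of these cells are given beside the receptors. In whole colon, fewer cells of a type and less RNA per cell cannot be told apart. Of 12 neutrophil markers with a probe set, 10 fell in GPR41 KO and 8 in GPR43 KO (in genes by their brightest probe set, 1.32% and 0.934% of all fell), with medians of -4.57 and -5.02. With any single array left out, 4 of the 10 calls and 5 of the 8 held. Without GPR41 KO replicate 1, or without its replicate 2, 4 of the 10 held, and 6 held without wild-type replicate 2. Of the 8, 6 held when the library labelled GPR43 KO replicate 1 was dropped (Ngp and Ltf were lost, adjusted p = 0.105 and 0.286), and 5 when replicate 2 was. Their summed signal was 69.1% and 131% of the wild-type mean in the 2 wild-type arrays, 0.912% and 0.748% in GPR41 KO, and for GPR43 KO 2.35% (library labelled replicate 1) and 0.93% (replicate 2). Such a sum of linear signals weighs the brightest markers most. The defining markers S100a8 and S100a9 still read 203 to 1202 in the arrays labelled KO. Among the arrays labelled KO, the library labelled GPR43 KO replicate 1 was highest both in Csf3r and in this sum.

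Of 13 macrophage and monocyte markers, 4 fell in GPR41 KO (Cd68, Cd163, Lyz2 and Cd14) and 2 in GPR43 KO (Cd68 and Cd14). Of the 13, 12 and 11 lay below 0, with a median of -0.91 in GPR41 KO and -0.45 in GPR43 KO. None of these calls held with every array left out in turn, and neither of those in GPR43 KO held when the library labelled replicate 1 was dropped (adjusted p = 0.256 for Cd68 and 0.101 for Cd14). Their summed signal, in which bright markers again weigh most, was 38.4% and 48.5% of the wild-type mean in GPR41 KO. It was 54.9% and 50.2% in GPR43 KO. The defining markers differed among themselves: the log2 fold changes were -0.91 and -0.45 for Adgre1, -1.84 and -1.48 for Cd68, -0.32 and -0.077 for C1qa, and -0.63 and -0.42 for C1qb, of which only those of Cd68 passed. The part that these cells have in the signals of the receptors was not tested. Eosinophils respond to interleukin 5 through Csf2rb, and 0 of their 5 markers passed in limma (1 in GPR41 KO and 0 in GPR43 KO at an unadjusted p under 0.05), with only 1 of the 5 above the 40th percentile of mean signal. Over the other 11 marker lists, Actg2 of smooth muscle rose and Fabp4 of adipocytes fell in both comparisons, and no other marker passed. The calls of Actg2, Fabp4, Cd68 and Lyz2 were lost with 5 of the 6 arrays left out 1 at a time, and that of Cd163 with each of the 6. Cd14 was lost with 2 arrays in GPR41 KO and 4 in GPR43 KO. Without the library labelled GPR43 KO replicate 1, Actg2 had an adjusted p of 0.302 and Fabp4 of 0.177 in GPR43 KO.

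**Figure D3:**
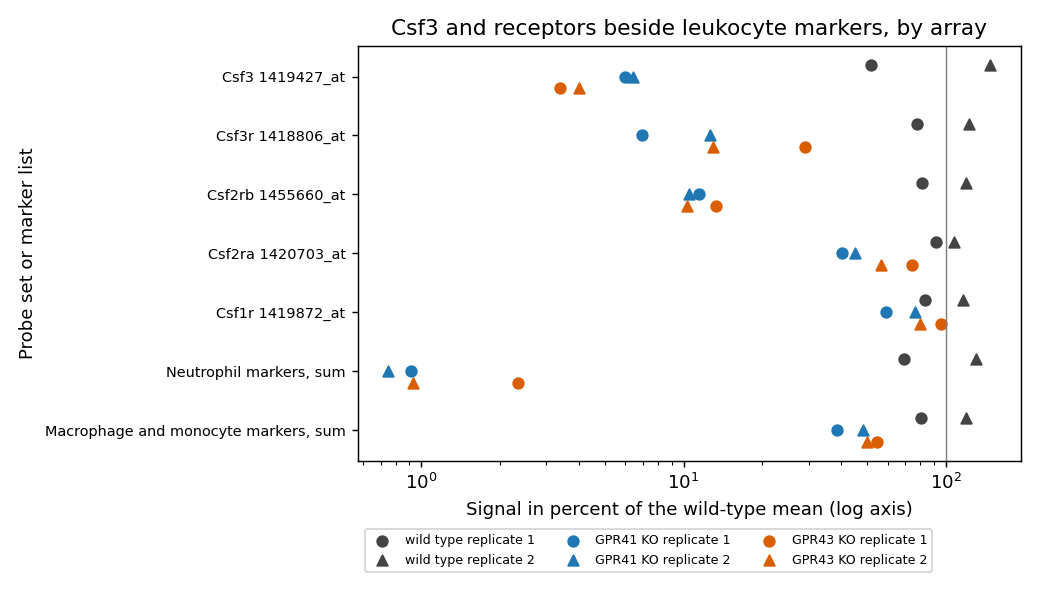
Signal of 5 member probe sets and summed signal of 2 marker lists in percent of the wild-type mean (log axis), for each of the 6 arrays. Each sum weighs bright markers most. Neutrophil markers stand at 0.748% to 2.35% in the arrays labelled KO, Csf3r at 6.96% to 29.0%, Csf2rb 1455660_at at 10.3% to 13.3% and Csf1r 1419872_at at 59.2% to 95.8%.

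The genes around these ligands and receptors were read from 5 lists, 87 of whose genes have a probe set. Of these, 14 fell and 0 rose in GPR41 KO (16.1%, where 1.83% of all genes passed in either direction), and 12 fell and 0 rose in GPR43 KO (13.8%, where 1.28% of all genes passed). Of these calls, 2 in GPR41 KO and 2 in GPR43 KO held with any single array left out. Without GPR41 KO replicate 1 or replicate 2, 4 and 2 of the 87 passed in GPR41 KO. In GPR43 KO 3 of the 87 passed when the library labelled GPR43 KO replicate 1 was dropped, and 2 when replicate 2 was. There, 6 passed without wild-type replicate 2, and likewise without either array of GPR41 KO. In GPR43 KO against GPR41 KO limma called 0 of the 87 (7 at an unadjusted p under 0.05, against 5.42% of all genes).

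Of 22 inducers of colony-stimulating factor transcription, 4 fell in each comparison: Il1a, Il1b, Il6 and Il33. Il1b, a cytokine that induces Csf3 in stromal cells, read 9023 and 17120 in wild type, 189 and 166 in GPR41 KO, and 252 and 199 in GPR43 KO. Its log2 fold change was -5.99 ± 0.27 and -5.68 ± 0.27, and it passed whichever array was left out (adjusted p up to 0.00721 and 0.00673). Il1a, which acts on the same receptor, had -4.39 and -4.78. It was lost in GPR41 KO without GPR41 KO replicate 1 (adjusted p = 0.0519) or 2 (0.0647). Il6 had -5.08 and -5.59, and was lost in GPR41 KO without GPR41 KO replicate 2 (0.0714). In GPR43 KO it was lost without the library labelled GPR43 KO replicate 1 (0.0502) or without replicate 2 (0.0632). Il33 had -2.52 and -2.30, with adjusted p up to 0.136 and 0.206 when 1 array was left out, and 0.157 in GPR43 KO when it was the library labelled replicate 1. Tnf, which also induces Csf2 and Csf3, read 201 and 254 in wild type and 13.8 to 80.7 in the arrays labelled KO, and did not pass (log2 -2.23, adjusted p = 0.136, and -2.11, adjusted p = 0.169). The NF-kB subunit Rela had log2 fold changes of -0.24 and -0.18 and did not pass. The list's median was -0.53 in GPR41 KO and -0.43 in GPR43 KO, against -0.014 and 0.022 over all genes.

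Of 22 signal transduction genes below the receptors, 2 fell in each comparison: Rac2, a small GTPase of blood cells, and Tyrobp, an adaptor of myeloid receptors. Rac2 had log2 fold changes of -2.29 and -2.32 and Tyrobp of -2.26 and -1.86. With 1 array left out, the adjusted p of Rac2 reached 0.23 and 0.243 and that of Tyrobp reached 0.111 and 0.227. In GPR43 KO they were 0.0985 and 0.14 when the library labelled replicate 1 was left out. Jak2, the kinase bound to Csf2rb and used by Csf3r, read 923 and 958 in wild type, 1047 and 995 in GPR41 KO, and 772 and 943 in GPR43 KO. Its log2 fold changes of 0.12 and -0.14 did not pass (adjusted p = 0.859 and 0.807). Stat3, which carries the G-CSF signal, had -0.50 (adjusted p = 0.281) and -0.69 (0.128), and Stat5a, which carries that of GM-CSF, had -0.47 (0.622) and -0.63 (0.442).

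**Figure D4:**
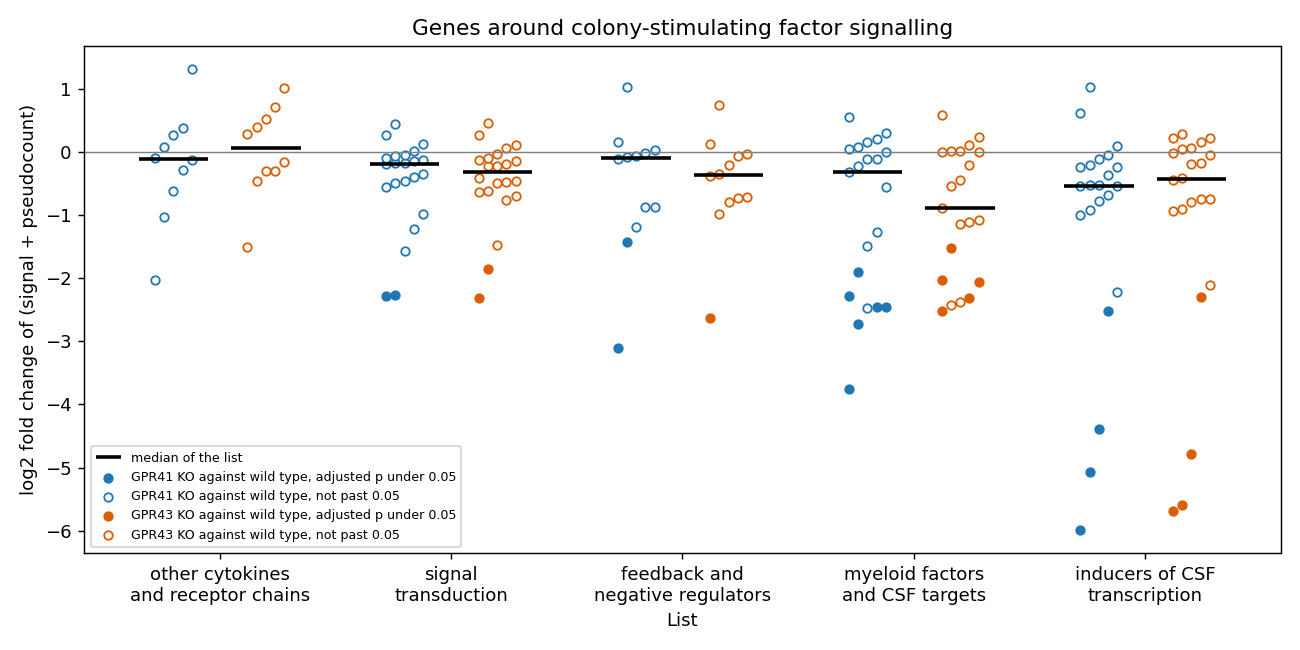
Log2 fold change of signal plus pseudocount for the genes of 5 lists around colony-stimulating factor signalling, in both comparisons with wild type, with filled points where the adjusted p was under 0.05 and black bars at the median of each list. Filled points lie below 0 in each list but that of other cytokines and receptor chains, which has none, and the lowest are Il1b, Il6 and Il1a among the inducers.

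Of 12 feedback and negative regulators, 2 fell in GPR41 KO and 1 in GPR43 KO. Socs3, which is induced by Stat3 and limits signalling through Csf3r, read 1500 and 2996 in wild type, 256 and 205 in GPR41 KO, and 420 and 255 in GPR43 KO. It fell by 3.11 ± 0.33 with GPR41 KO (adjusted p = 0.00368) and fell by 2.63 ± 0.33 with GPR43 KO (adjusted p = 0.0108). It was lost in GPR41 KO without GPR41 KO replicate 1 (adjusted p = 0.069) or 2 (0.0815), and in GPR43 KO without 5 of the 6 arrays, 1 at a time (up to 0.163, and 0.0537 without the library labelled replicate 1). Ptprc, the leukocyte phosphatase CD45, had -1.43 in GPR41 KO, where it fell, and -0.98 in GPR43 KO (adjusted p = 0.0871). Its call was lost with replicate 1 (0.207) or 2 (0.103) of GPR41 KO or wild-type replicate 2 (0.105) left out. Cish, a feedback gene of Stat5, had 0.029 and 0.12 and did not pass.

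Of 21 myeloid transcription factors and targets of colony-stimulating factors, 6 fell in GPR41 KO and 5 in GPR43 KO. Cebpb, a factor of emergency neutrophil production, read 5088 and 7538 in wild type, 1322 and 927 in GPR41 KO, and 1250.0 and 1205 in GPR43 KO. Its log2 fold changes were -2.46 ± 0.21 and -2.32 ± 0.21. The call in GPR41 KO held whichever array was left out (adjusted p up to 0.0417), and that in GPR43 KO was lost without GPR43 KO replicate 2 (0.0632). Cebpd, its relative, had -1.90 and -1.52, lost in GPR41 KO without replicate 2 of that group (0.0731) and in GPR43 KO without 3 arrays, 1 at a time (up to 0.235, and 0.177 without the library labelled replicate 1). Cebpa, a factor of steady-state granulocyte production that epithelium also expresses, had 0.0022 and -0.0032.

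The other calls were of surface and secreted products of myeloid cells: Mmp9 (-2.73 and -2.52), the integrin chain Itgam (-2.46 and -2.07), the endotoxin co-receptor Cd14 (-2.29 and -2.03) and, in GPR41 KO, the cytokine Osm (-3.75). Osm had -2.37 in GPR43 KO and did not pass (adjusted p = 0.104). With 1 array left out, each of these calls was lost at least 1 time, with adjusted p up to 0.161 in GPR41 KO and 0.303 in GPR43 KO. In GPR43 KO, Itgam was lost with each of the 6 arrays, Cd14 with 4 and Mmp9 with 3, and without the library labelled replicate 1 the adjusted p was 0.195, 0.101 and 0.0539. Spi1, the gene of PU.1, read 457 and 761 in wild type, 151 and 260 in GPR41 KO, and 303 and 228 in GPR43 KO, and did not pass (-1.49, adjusted p = 0.0862, and -1.11, adjusted p = 0.221).

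Of 10 other cytokines and receptor chains of these families, 0 passed in limma in either comparison (3 in each at an unadjusted p under 0.05), where 1.83% and 1.28% of all genes passed, with 0.506% and 0.341% rising, and 14.4% and 14.7% had an unadjusted p under 0.05. Csf2rb2, which is in this list, passed in GPR41 KO with weak probe sets left out, as given above with the limit of that filter. Il34, the second ligand of Csf1r, read 109 and 145 in wild type, 86.4 and 65.7 in GPR41 KO, and 109 and 111 in GPR43 KO, with log2 fold changes of -0.62 (adjusted p = 0.608) and -0.17 (0.917). Il3 and Il5 were weak, from 1.70 to 34.4 over the 6 arrays. Kitl, the ligand of Kit, had 0.38 and 0.39 and did not pass.

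The genes whose signals followed each member most closely over the 6 arrays were found among 13093 other genes above the 40th percentile (13094 for Csf2), and Pearson's r is given as a description on the log2 scale. For Csf2rb these were Il1b (r = 0.999), the chemokine Ccl3 (0.999) and the siderophore-binding Lcn2 (0.997). For Csf3r they were 3110082I17Rik (0.998), the chemokine-binding receptor Ackr3 (0.997) and the complement receptor C5ar1 (0.995). For Csf3 they were Pla2g7 (0.996), Fabp4 (0.995) and the chemokine Ccl9 (0.994). These patterns share the split of wild type from the arrays labelled KO: 309 genes were above 0.95 for Csf2rb and 236 each for Csf3r and Csf3. Csf1r followed another pattern, nearest to Toe1 (0.997), Igsf8 (0.995) and Slc43a3 (0.993), with 87 genes above 0.95. Csf2ra was nearest to Wtip (0.994), Csf1 to Lrrc8c (0.995) and Csf2 to Atg10 (0.994). With 6 arrays and so many genes searched, some r this high can arise by chance, which was not tested.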

How the data were processed

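RNA was amplified and labelled with biotin from 2 µg of total RNA and read on 1 array per sample, per the labels' protocols. The deposited values are intensities, made by the authors with MAS5 per the submitters' processing notes, whose version is not given here. Without the lowest and highest 2% of values the mean was 500.003 in each. Of 45101 probe sets, 64 were controls. Symbols came from the array's annotation table (34945 probe sets with 1 symbol, 932 with several), and positions and promoters from RefSeq, GRCm38.p6.

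Before log2, 18.4 was added to each value, which is percentile 20 of the whole table. All 45037 other probe sets were tested without a filter in limma 3.58.1 (R 4.3.3), with 1 mean per group, an intensity trend in eBayes, two-sided tests and Benjamini-Hochberg adjustment over all of them at 0.05. Residual degrees of freedom were 3, and 8.84 with the prior of eBayes. Genes of lists were read by their probe set with the highest mean. Members, the 5 gene lists and the 14 marker lists were chosen with earlier results of these data known. Named genes are the members, list genes past the threshold or with the smallest p, first markers of lists or those in counts of 5 or fewer, and the 3 most correlated genes. Ngp, Ltf, Rela, Cebpa, Jak2, Stat3, Stat5a, Cish, Spi1, Tnf, Il3, Il5, Kitl and the Csf3r and Csf2ra windows were picked by role or after values were seen. Some listed genes were not used here. The procedure was also run on simulated data with independent normal noise, which cannot check the calls made here. Alternatives covered the pseudocount, scaling, filter, trend, groups fitted, replicate block and each array left out. The number of arrays limits the precision.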

Additional observations from a re-analysis of the deposited data

How the results depend on the processing

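Counts past the threshold are given for GPR41 KO and then GPR43 KO, both against wild type. With each array left out in turn, they ranged from 1 to 5 and from 1 to 3 for member probe sets (5 and 3 with all arrays), from 51 to 651 and from 57 to 489 for all probe sets (475 and 342), and from 2 to 21 and from 2 to 15 for list genes (14 and 12). With a common prior spread in place of the intensity trend they were 0 and 0 for members, 8 and 5 for all probe sets, and 1 and 0 for list genes. Fitting only the groups compared gave 152 probe sets in GPR43 KO, and 1 probe set per gene with the filter gave 23 list genes in GPR41 KO. In GPR43 KO against GPR41 KO, 2 probe sets passed with median centring, 1 with the filter, and 0 to 3 with 1 array left out. The cause of these changes was not tested. The alternatives differ in the number of samples, the number of probe sets, the scaling or the estimate of the spread.

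Direction turned for differences near 0. Csf1 1425154_a_at in GPR41 KO was at 0.074 with quantile normalization, 0.051 with median centring and -0.49 to 0.41 with 1 array left out. With 1 array left out, values in GPR43 KO against wild type were -0.41 to 0.073 (Csf1r 1419872_at), -0.23 to 0.075 (Csf1r 1419873_s_at), -0.16 to 0.074 (Csf1r 1423593_a_at) and -1.73 to 0.15 (Csf2ra 1420704_at). In GPR43 KO against GPR41 KO they were -0.90 to 0.97 (Csf2ra 1420704_at), -0.60 to 0.0079 (Csf2rb 1421326_at), -0.73 to 0.17 (Csf1 1425154_a_at), -0.20 to 1.12 (Csf1 1425155_x_at), -0.083 to 0.26 (Csf2rb 1455660_at) and -0.063 to 0.36 (Csf1 1460220_a_at). There Csf2ra 1420704_at was at -0.15 with a pseudocount of 1, -0.047 with quantile normalization and -0.062 with median centring, and Csf2rb 1455660_at at -0.0076 with median centring. Of 600 member values under alternatives, 550 kept direction and side of the threshold. Most of the 600 belong to results that had not passed with all arrays and so had no call to lose. This share therefore does not describe how well the 5 calls in GPR41 KO and the 3 in GPR43 KO held.

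Nothing in the labels says that equal replicate numbers belong together. The differences of replicate 1 from 2 had correlations between groups of -0.063 to 0.0091 over all probe sets. With the replicate block 5 and 3 members, 400 and 298 probe sets, and 14 and 12 list genes passed, and 0 in GPR43 KO against GPR41 KO. Weak signals such as Csf2 limit what could be seen.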
